A study of Homo sapiens with 4 samples.

Results

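The immediate early genes and the feedback genes of the MAPK pathway were read from RNA sequencing of T24T and UMUC3, which are 2 cell lines from human bladder cancer. The set held 35 genes, chosen by symbol, and all 35 were among the 32973 genes listed. Stable transfectants of both lines carried an empty vector or a BCUC-1 overexpression construct. BCUC-1 is the circular RNA hsa_circ_0001361. That gave 4 groups with 1 library in each, and the cells were grown in RPMI-1640 medium with serum. Whether a transfected line was a pool or 1 clone is not given in the sources used here. Serum was present in every group, so no library shows the response to serum or to a growth factor added after starvation.

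Immediate early genes are switched on within minutes of a growth factor or stress signal, without new protein synthesis. The ERK branch of the MAPK cascade acts on them through serum response factor with its ETS partners and through CREB-type factors, and their products include the AP-1 subunits (Fos and Jun proteins) and the zinc finger EGR factors. A slower group limits the same signal: DUSP phosphatases remove phosphate from the kinases, and Sprouty and SPRED proteins block the steps between receptor and RAF. These genes are used as a readout of ERK output in tumour cells.

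The promoter windows of 4 genes are shown because they carry the known response elements and because these genes differed between the lines in both directions. They are the 200 bases before the RefSeq transcript start on build GRCh38.p14, written 5′ to 3′ on the strand of the gene. Capitals mark the CArG boxes (the serum response factor element) of EGR1 and the cyclic AMP response element (CRE, TGACGTCA) of the others.
EGR1 (chr5:138465279-138465478, plus strand): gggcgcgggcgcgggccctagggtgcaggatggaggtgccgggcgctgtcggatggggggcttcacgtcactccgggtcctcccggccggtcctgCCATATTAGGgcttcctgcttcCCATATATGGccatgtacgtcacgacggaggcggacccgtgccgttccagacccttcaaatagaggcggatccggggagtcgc
DUSP1 (chr5:172771196-172771395, minus strand): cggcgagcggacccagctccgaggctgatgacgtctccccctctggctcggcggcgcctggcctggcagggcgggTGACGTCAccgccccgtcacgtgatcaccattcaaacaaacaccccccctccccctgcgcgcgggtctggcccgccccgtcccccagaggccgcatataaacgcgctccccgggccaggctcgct
EPHA2 (chr1:16156070-16156269, minus strand): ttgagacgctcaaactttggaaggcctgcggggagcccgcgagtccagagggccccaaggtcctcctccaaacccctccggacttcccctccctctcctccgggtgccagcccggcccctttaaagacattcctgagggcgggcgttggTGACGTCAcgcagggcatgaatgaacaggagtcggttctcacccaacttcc
JUND (chr19:18281623-18281822, minus strand): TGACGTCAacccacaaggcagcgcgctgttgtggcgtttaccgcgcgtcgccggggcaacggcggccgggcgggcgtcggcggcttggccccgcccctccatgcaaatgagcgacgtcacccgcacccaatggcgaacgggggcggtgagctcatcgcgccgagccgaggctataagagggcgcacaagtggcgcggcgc

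Windows of 300 bases, from 250 before the start to 50 after it, were at hand for 26 of the 35 genes. The first listed window was read where a gene had more than 1. The CArG box was found in 1 of the 26, EGR1, at 105 and 83 bases before the start, and in 1.29% of all 27305 promoters. The CRE was found in DUSP1, EPHA2 and JUND, and in 1.98% of all promoters. Its first 5 bases, TGACG, which every full CRE also contains, were in 15 of the 26 and in 25.01% of all promoters. The AP-1 site TGANTCA was found in FOSL2 (7.76% of all promoters), the ETS core CCGGAAG in IER2 (10.7%) and the EGR site GCGTGGGCG in 0 of the 26 (0.784%). Both strands were searched, and a match is a description of the letters only. Bases outside the windows were not searched, so a gene without a match may still carry the element further away.

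Sequencing depth was even, with 22730112 to 26497894 assigned reads per library, and between 26385 and 26808 genes had at least 1 read. The keratin genes KRT8 (13.0 to 146 RPKM) and KRT18 (39.9 to 88.2 RPKM) were expressed in all 4 libraries, while the epithelial genes CDH1, EPCAM and KRT19 stayed at or under 0.219 RPKM and VIM stood at 82.9 to 267 RPKM. Of 6 urothelial markers, 4 were under 1 RPKM in every library. The 4 endothelial, 4 fibroblast and 2 leukocyte markers measured were each under 1 RPKM in every library. RPKM counts reads per kilobase of exon at a library total made equal for all libraries, and it is the scale on which genes are compared with each other here.

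The genes spanned a wide range of levels. FOSL1 was the highest, with 92.4 and 103 RPKM in the vector and BCUC-1 libraries of T24T and 253 and 261 in those of UMUC3, and its mean level exceeded that of 99.4% of listed genes. EPHA2 (35.4 to 62.2 RPKM), JUN (8.73 to 65.1), IER3 (13.9 to 40.5) and IER2 (20.9 to 26.4) followed. At the lower end stood EGR2, EPHA4, EGR3, NR4A3 and NR4A1, and EGR2 had 1 read in the T24T vector library and 0 in the other libraries, where a count of 0 allows up to 3 reads. In all, 7 genes were above 10 RPKM in every library and 7 were below 1 RPKM in every library. The classic rapid responders FOS, FOSB and the NR4A genes were at or under about 1 RPKM throughout, and the plot of levels shows them at or left of the line at 1 RPKM.

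**Figure D1:**
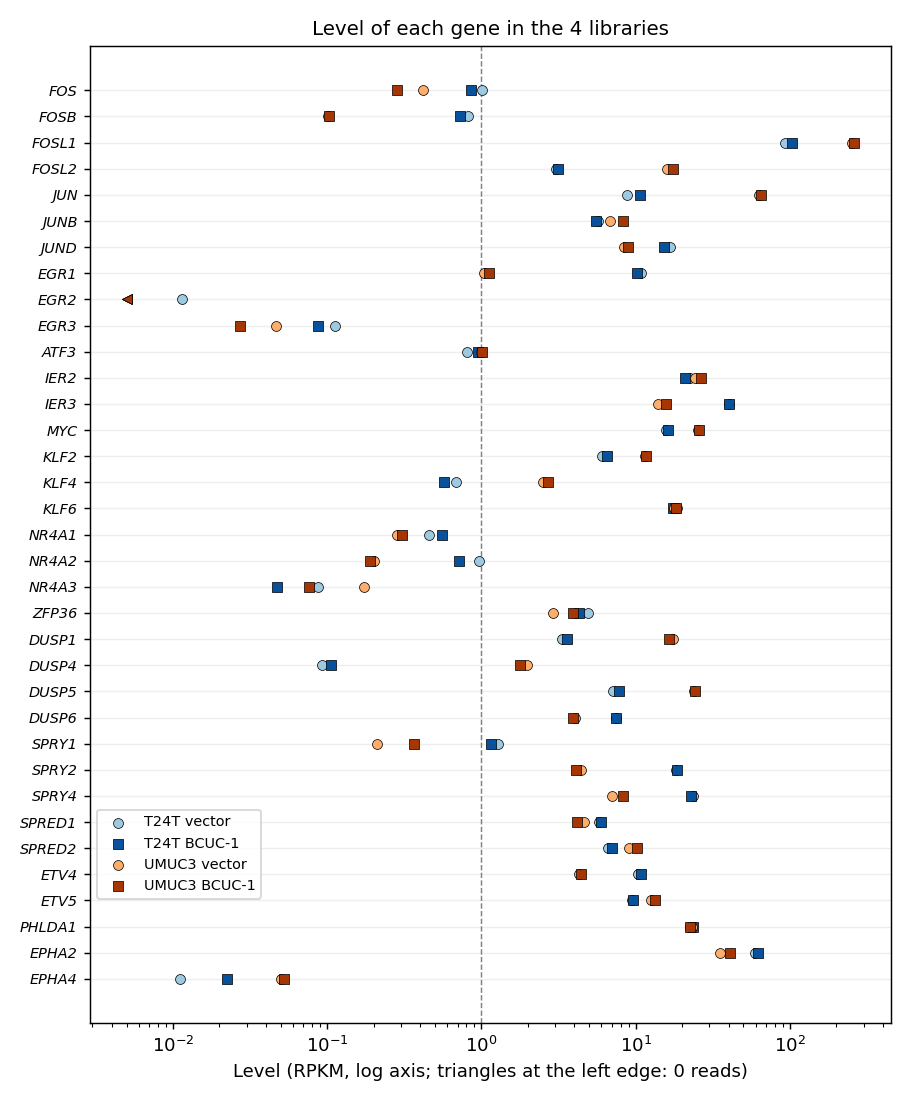
Level of each of the 35 genes in RPKM on a log axis, 1 point per library; circles are vector and squares BCUC-1, blue T24T and orange UMUC3. The 2 libraries of a line lie close together for most genes, and FOSL1 is the highest gene in every library.

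The Fos and Jun proteins pair to form AP-1. In both lines FOSL1 made up most of the Fos family by level per length, 94.99% of it in T24T with vector, 95.6% in T24T with BCUC-1 and 93.9% and 93.6% in the UMUC3 libraries with vector and BCUC-1. FOSL1 encodes FRA-1, a Fos protein that lacks the transactivation domain of FOS and is stabilised by ERK. On GRCh38 it lies on chromosome 11 from 65892049 to 65900573. Its level was higher in both UMUC3 libraries than in either T24T library, by 1.39 on the log2(RPKM + 1) scale (SE 0.0652, limma adjusted p = 6.84e-06). FOSL2, which encodes FRA-2, had 3.06 and 3.16 RPKM in T24T vector and BCUC-1 and 15.9 and 17.4 in UMUC3. The UMUC3 level was 5.22 times the T24T level in the vector pair (95% interval 4.75 to 5.74) and 5.52 times in the BCUC-1 pair (5.03 to 6.07). These intervals come from the reads (exact Clopper-Pearson) and cover counting error only.

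FOS itself went the other way at a low level. It was covered by 77 and 65 reads for T24T, vector first, against 36 and 21 for UMUC3, so that T24T stood 2.39 times (1.59 to 3.66) above UMUC3 in the vector pair and 2.98 times (1.80 to 5.14) in the BCUC-1 pair. For FOSB the T24T libraries held 107 and 95 reads against 15 and 13 for UMUC3. In the T24T vector library FOS made up 1.03% and FOSB 0.837% of the summed Fos family level.

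JUN, a main partner of the Fos proteins, is encoded on chromosome 1 from 58780788 to 58784327. Of the genes of the set tested, it had the largest difference on the log2(RPKM + 1) scale. With limma-voom on reads the T24T minus UMUC3 differences of DUSP4 (-4.20) and EGR1 (3.28) were larger in size than that of JUN (-2.74). JUN had 8.73 and 10.6 RPKM in T24T vector and BCUC-1 and 63.3 and 65.1 in UMUC3. The 2 lines did not overlap, and the difference, T24T minus UMUC3, was -2.62 (SE 0.0789, limma adjusted p = 1.51e-06). JUND, a Jun protein often found in resting cells, was higher in T24T, with 16.6 and 15.3 RPKM against 8.35 and 8.93 (difference 0.82, limma adjusted p = 0.000194). JUNB had 5.71 and 5.54 RPKM in T24T and 6.82 and 8.27 in UMUC3, a difference of -0.36 (limma adjusted p = 0.0175). The makeup of the Jun family therefore differed: JUN was 28.1% and 33.6% of it in T24T and 80.7% and 79.1% in UMUC3, and JUND was 53.5% and 48.7% in T24T and 10.6% and 10.8% in UMUC3. ATF3, a stress-induced partner of Jun, had 77 and 91 reads in the T24T libraries and 107 and 93 in those of UMUC3, and its intervals between the lines included 1 in both pairs (0.593 to 1.09 and 0.698 to 1.27).

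**Figure D2:**
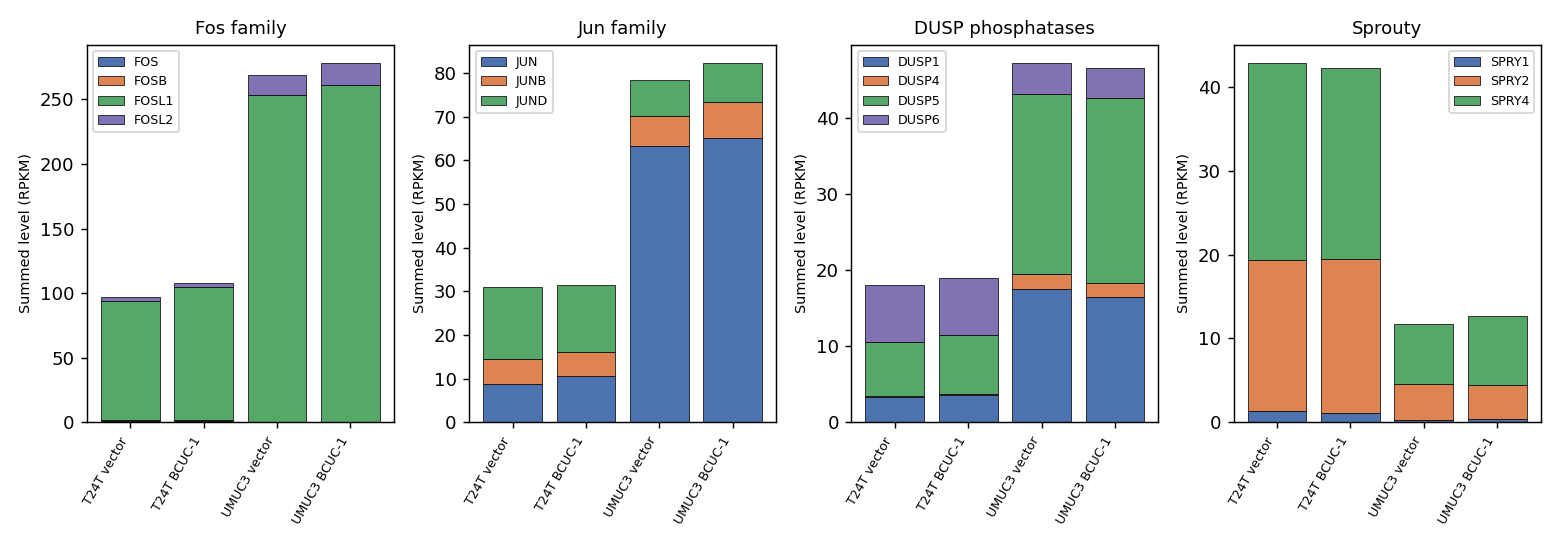
Summed level in RPKM of the Fos, Jun, DUSP and Sprouty genes of the set in each library, stacked by gene. DUSP and Sprouty genes outside the set are not in the sums. The Fos, Jun and DUSP sums are higher in UMUC3 and the Sprouty sum in T24T, with little difference between the vector and BCUC-1 bars of a line.

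EGR1, whose promoter with its pair of CArG boxes is shown above, encodes a zinc finger factor that is a direct ERK and serum response factor target. It had 10.8 and 10.2 RPKM in T24T vector and BCUC-1 and 1.05 and 1.12 in UMUC3. T24T stood 10.3 times (8.27 to 13.0) above UMUC3 in the vector pair and 9.11 times (7.22 to 11.6) in the BCUC-1 pair, and the limma difference was 2.47 (SE 0.0983, adjusted p = 3.76e-06). Its relative EGR3 was covered by 13 and 10 reads for T24T against 6 and 3 for UMUC3. The nuclear receptor gene NR4A2 was covered by 91 and 67 reads for T24T against 21 and 17 for UMUC3, NR4A1 by 79 and 96 against 55 and 51, and NR4A3 by 13 and 7 against 29 and 11. Within these the lines did not overlap for NR4A1 and NR4A2, and overlapped for NR4A3.

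Other early response genes were split between the lines. IER3, a regulator of apoptosis and ERK signalling, had 40.5 and 40.4 RPKM in T24T against 13.9 and 15.8 in UMUC3 (difference 1.39, SE 0.0760, limma adjusted p = 1.24e-05). MYC, the growth regulator, had 15.8 and 16.1 RPKM in T24T and 25.4 and 25.7 in UMUC3, a difference of -0.64 (limma adjusted p = 0.000225). KLF2 (-0.79) and KLF4 (-1.15), both Krüppel-like factors, were also higher in UMUC3, with limma adjusted p of 0.000197 and 9.57e-05. KLF4 had 0.681 and 0.568 RPKM in T24T and 2.51 and 2.71 in UMUC3. KLF6 had 18.5 and 17.4 RPKM in T24T against 17.6 and 18.3 in UMUC3, so the lines overlapped (limma adjusted p = 0.987). IER2 differed by -0.22 (limma adjusted p = 0.0452). ZFP36, which encodes the mRNA decay factor tristetraprolin, had 4.94 and 4.26 RPKM in T24T and 2.93 and 3.90 in UMUC3. The difference of 0.35 missed the threshold (limma adjusted p = 0.0539). That limma adjusted p was 0.0115 with limma-voom on reads, 0.153 with quantile normalization, 0.116 with equal medians and 0.231 with no filter on low values.

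The DUSP phosphatases are feedback inhibitors with different places of action. Of those in the set, DUSP1, DUSP4 and DUSP5 act in the nucleus, and all of them were higher in UMUC3. DUSP1, which carries a CRE in the window shown, had 3.35 and 3.59 RPKM in T24T and 17.5 and 16.5 in UMUC3 (difference -2.01, SE 0.0887, limma adjusted p = 5.41e-06). DUSP5, an ERK-directed phosphatase, had 7.11 and 7.75 RPKM in T24T and 23.7 and 24.4 in UMUC3 (difference -1.57, limma adjusted p = 7.46e-06). DUSP4 was covered by 16 and 18 reads for T24T against 378 and 295 for UMUC3, which was 21.1 times (12.8 to 37.3) the T24T level in the vector pair and 17.0 times (10.6 to 29.1) in the BCUC-1 pair. DUSP6, the cytoplasmic ERK phosphatase, ran opposite to these, with 7.46 and 7.46 RPKM in T24T and 4.06 and 3.91 in UMUC3 (difference 0.76, limma adjusted p = 0.000340). It made up 41.4% and 39.5% of the summed level of DUSP1, DUSP4, DUSP5 and DUSP6 in T24T and 8.59% and 8.41% in UMUC3. Of the DUSP genes in the wider lists below, DUSP7 was higher in UMUC3 (difference -0.74, limma adjusted p = 0.000542). DUSP9 (0.57) and DUSP10 (0.95), under 1 RPKM in UMUC3, were higher in T24T. DUSP14, with 8.97 RPKM in the T24T vector library and 9.27 in that of UMUC3, was not in the sum. Whether direction went with place of action was not tested.

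The Sprouty genes of the set were higher in T24T. SPRY3, from the wider lists below, went the other way at a low level, with 48 and 38 reads in T24T against 78 and 67 in UMUC3. SPRY2 had 18.1 and 18.4 RPKM in T24T vector and BCUC-1 and 4.40 and 4.10 in UMUC3 (difference 1.88, SE 0.0831, limma adjusted p = 5.49e-06). SPRY4 had 23.5 and 22.8 RPKM in T24T and 7.07 and 8.25 in UMUC3 (difference 1.48, limma adjusted p = 1.74e-05). SPRY1 was covered by 121 and 108 reads for T24T against 22 and 33 for UMUC3 (difference 0.79, limma adjusted p = 0.000575). The related SPRED genes, which recruit neurofibromin to RAS, were split, with SPRED1 higher in T24T (0.35, limma adjusted p = 0.0159) and SPRED2 higher in UMUC3 (-0.43, limma adjusted p = 0.00353).

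ETV4 and ETV5, ETS factors of the PEA3 group that are induced by ERK, were split too. ETV4 had 10.3 and 10.9 RPKM in T24T and 4.30 and 4.39 in UMUC3 (difference 1.12, SE 0.0862, limma adjusted p = 5.19e-05). ETV5 had 9.48 and 9.54 RPKM in T24T and 12.6 and 13.3 in UMUC3 (difference -0.41, limma adjusted p = 0.00336). EPHA2, a receptor tyrosine kinase induced by ERK, had 58.9 and 62.2 RPKM in T24T and 35.4 and 40.6 in UMUC3 (difference 0.66, limma adjusted p = 0.000168). Its relative EPHA4 was covered by 2 and 4 reads for T24T against 10 and 9 for UMUC3. PHLDA1 had 22.5 and 23.4 RPKM in T24T against 23.1 and 22.4 in UMUC3, and the lines overlapped (limma adjusted p = 0.888).

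**Figure D3:**
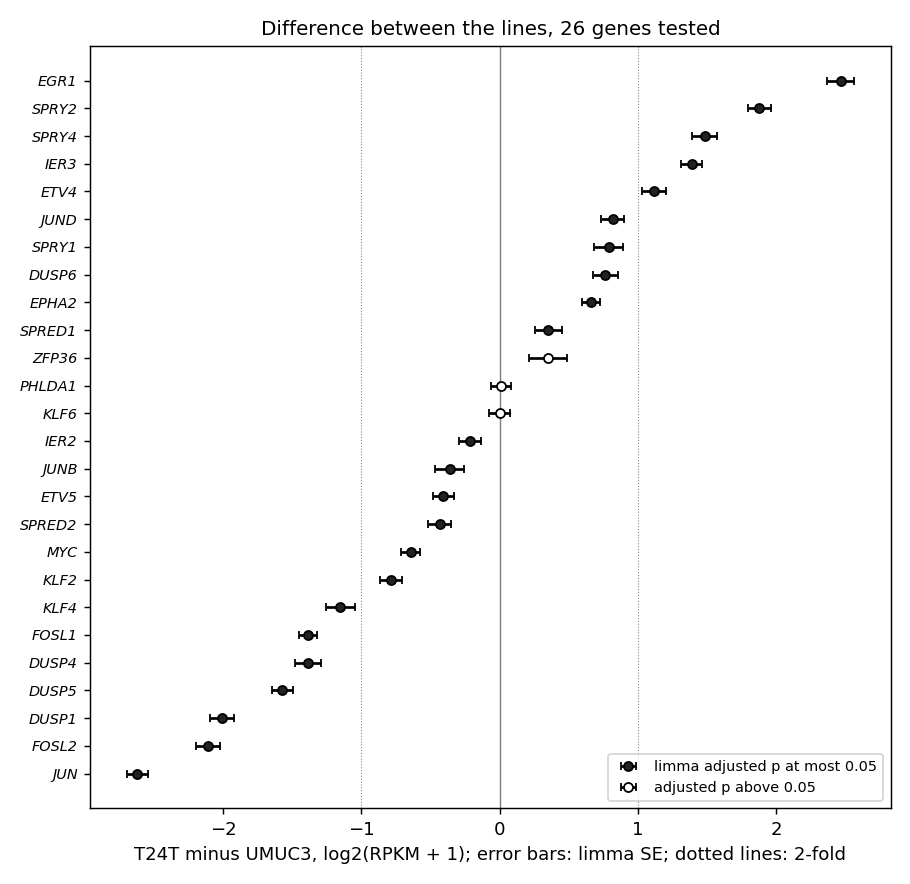
Difference between T24T and UMUC3 on the log2(RPKM + 1) scale for the 26 genes that reached the floor of the test, with the limma SE; filled points passed an adjusted p of 0.05. EGR1, SPRY2 and SPRY4 lie at the T24T end and JUN, FOSL2 and DUSP1 at the UMUC3 end.

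The limma test of T24T against UMUC3 took the genes that reached 1 RPKM in any 2 libraries, with line and treatment in the model. Of the 26 genes of the set that reached this floor, 10 were called higher in T24T, where 40.8% of all 15415 genes tested were, and 13 in UMUC3, where 29.6% were (70.4% in all). With a 2-fold difference on the log2(RPKM + 1) scale required as well, 12 were called, against 17.9% of all genes in either direction. Of these 5 were higher in T24T (10.2% of all genes) and 7 in UMUC3 (7.73%). That scale shrinks differences at low levels. SPRY1 missed this rule at 0.79, though T24T stood 6.15 times above UMUC3 in the vector pair and 3.15 times in the BCUC-1 pair. SPRY1, DUSP4 and KLF4 reached the floor in 1 line only and had to differ. Among the 23 that reached it in both lines, 20 were called in either direction (65.5% of 13049 such genes). With the 2-fold rule 5 were higher in T24T (5.93%) and 5 in UMUC3 (4.53%), 10 in all (10.5%). The median absolute difference was 0.80 for the 26 genes and 0.45 for all genes tested. The signed median was -0.11 for the 26 genes and 0.10 for all genes, which became -0.0099 with every library brought to the same median. SPRED1 then missed the threshold (limma adjusted p = 0.0690). The 2 libraries of a line carried different plasmids and are not stated to be replicate cultures. The model left 1 residual degree of freedom, so its p-values rest on the spread shared by all genes.

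Within each line the vector and BCUC-1 libraries were much closer. Over the 28 genes above the read floor in both lines, the median absolute log2 difference was 0.086 in T24T and 0.10 in UMUC3, against 0.95 between the lines in the vector pair and 0.89 in the BCUC-1 pair. For all 14499 genes above the floor these medians were 0.076, 0.13, 0.52 and 0.51. For 22 of the 28 the difference between the lines exceeded both within-line differences in both pairs, as it did for 70.0% of all genes.

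The question of the study was which genes lie downstream of BCUC-1. In T24T the largest difference of the set with an interval that left out 1 was at JUN. It had 732 reads in the vector library and 884 in the other. The ratio was 1.21 (1.1 to 1.34) once reads were scaled to equal library totals (RPM). NR4A1 stood at 1.22 (79 against 96 reads, 0.896 to 1.66) and NR4A2 at 0.739 (91 against 67 reads, 0.531 to 1.02), and both intervals included 1. These 3 were the genes past 1.2-fold among the 30 that reached a floor of 1 RPM in either library and 20 reads over both: 2 higher, where 4.27% of all 16084 genes were, and 1 lower, where 10.8% were (15.1% in either direction). FOSL1, with 4128 and 4591 reads, had a ratio of 1.12 (1.07 to 1.16). EPHA2, with 5805 and 6105 reads, stood at 1.06 (1.02 to 1.09), and KLF6 was lower at 0.940 (0.890 to 0.993). Intervals that left out 1 were thus seen at 3 higher genes (5.19% of all genes) and 1 lower (10.1%), 4 of 30 in all (15.3%).

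Of the 30 genes in T24T, 17 were higher and 13 lower with BCUC-1 by any amount, where 42.2% of all genes were higher and 57.8% lower. The median log2 ratio was 0.015, beside -0.023 for all genes. The feedback genes sat near 1: DUSP6 had 818 and 815 reads (ratio 1.00, 0.907 to 1.1), SPRY2 1304 and 1318 (1.01, 0.939 to 1.1) and SPRY4 3305 and 3183 (0.967, 0.921 to 1.02). EGR1, with 803 and 756 reads, had a ratio of 0.945 (0.855 to 1.05). With 1 library per group there is no replicate check, and these ratios compare libraries, not conditions.

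In UMUC3, 5 of 30 genes were past 1.2-fold, 3 higher (14.0% of all 15686 genes were) and 2 lower (8.78%), against 22.8% of all genes in either direction. The ratio was 1.33 (1.07 to 1.66) at ZFP36, from 156 and 178 reads, and 1.21 (1.04 to 1.41) at JUNB, from 329 and 342. The remaining 3 had fewer than 100 reads in the pair and are named after their values were seen. Each reached the floor of 1 RPM only in the library where it was higher, so the floor favoured a difference. SPRY1 had 22 and 33 reads (1.75, 0.989 to 3.15), FOS 36 and 21 (0.680, 0.377 to 1.2) and NR4A3 29 and 11 (0.442, 0.199 to 0.912). FOS and NR4A3 were lower with BCUC-1 in T24T too, by 65 against 77 and 7 against 13 reads, with intervals that included 1 (0.600 to 1.19 and 0.183 to 1.46), and NR4A3 was under the read floor there. With a mean of 1 RPM over the pair required instead, a rule added after the values were seen, NR4A3 dropped out and 4 of 29 genes were past 1.2-fold, against 21.5% of all 15366 genes.

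Among abundant UMUC3 genes the differences were small. EPHA2 had 3903 and 3836 reads, a ratio of 1.15 (1.1 to 1.2) at the lower depth of the BCUC-1 library. SPRY4 stood at 1.17 (1.07 to 1.27), SPRED2 at 1.13 (1.04 to 1.23), FOSL2 at 1.09 (1.04 to 1.15), IER2 at 1.09 (1.02 to 1.16) and FOSL1 at 1.03 (1.01 to 1.06). SPRED1 was lower at 0.896 (0.815 to 0.985). JUN, which was past 1.2-fold in T24T, had 5935 and 5242 reads in UMUC3, a ratio of 1.03 (0.992 to 1.07). Counting these and JUNB, ZFP36 and NR4A3, intervals left out 1 at 10 of 30 genes, against 34.0% of all genes. Without NR4A3, under the mean floor, it was 9 of 29 against 34.3%. For ZFP36, SPRY4 and IER2 the UMUC3 ratio was above 1 and the T24T ratio below 1 with intervals that did not overlap, as for 7.67% of the 14499 genes above the floor in both lines. The opposite pattern was seen at 0 of the 28 genes (4.22% of all), which made 3 of 28 against 11.9% in either direction.

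**Figure D4:**
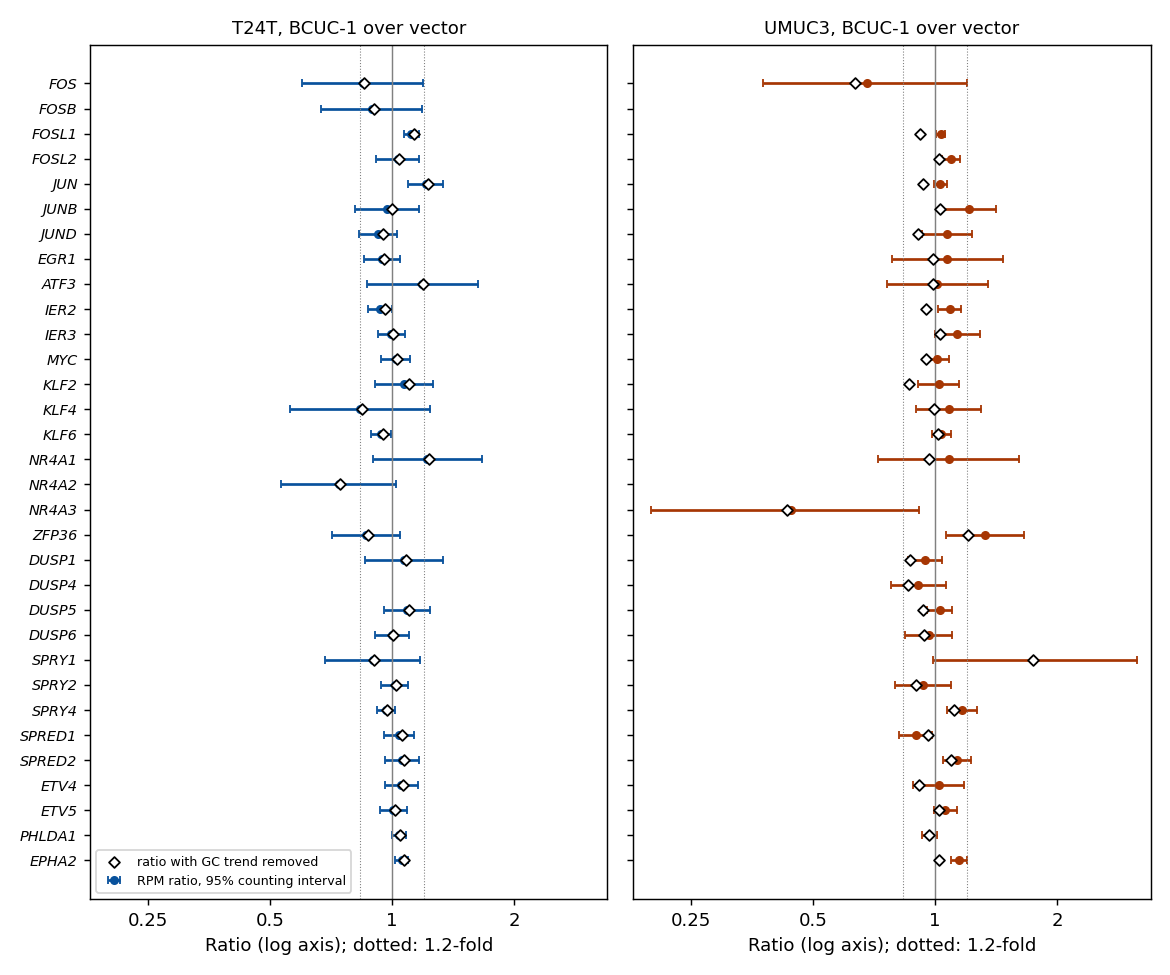
Ratio of BCUC-1 to vector in each line for the 32 genes above the read floor in a line, on a log axis with 95% counting intervals; diamonds give the ratio after the trend on GC content was removed. Most points lie within 1.2-fold of 1, and in UMUC3 the diamonds lie left of the points for GC-rich genes such as JUNB and JUND.

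The UMUC3 values moved with base composition. Over all genes the UMUC3 log2 ratio rose from a median of -0.16 in the lowest to 0.21 in the highest of 10 groups ordered by GC content. Spearman's rho of ratio and GC content was 0.555 in UMUC3 over 12971 genes and 0.0062 in T24T, where genes of 1 library are not independent replicates. Genes of the set had a median GC content of 53.3%, against 47.9% for all genes above the floor. Before the trend was removed, 22 of the 30 genes were higher with BCUC-1 (57.6% of all genes were) and 8 lower (42.4%), with a median log2 ratio of 0.048 beside 0.038 for all genes. After removal 10 were higher and 20 lower, and the median was -0.055. Removal sets the median of all genes to 0, and 6480 of the 12971 genes with a GC value were higher and 6480 lower. JUNB went from 0.28 to 0.037, EPHA2 from 0.20 to 0.031, IER2 from 0.12 to -0.074 and FOSL1 from 0.045 to -0.12, while ZFP36 (0.41 to 0.27), SPRY4 (0.22 to 0.15) and SPRED2 (0.18 to 0.13) kept more of their values. In T24T the same step left JUN at 0.30 and FOSL1 at 0.18.

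**Figure D5:**
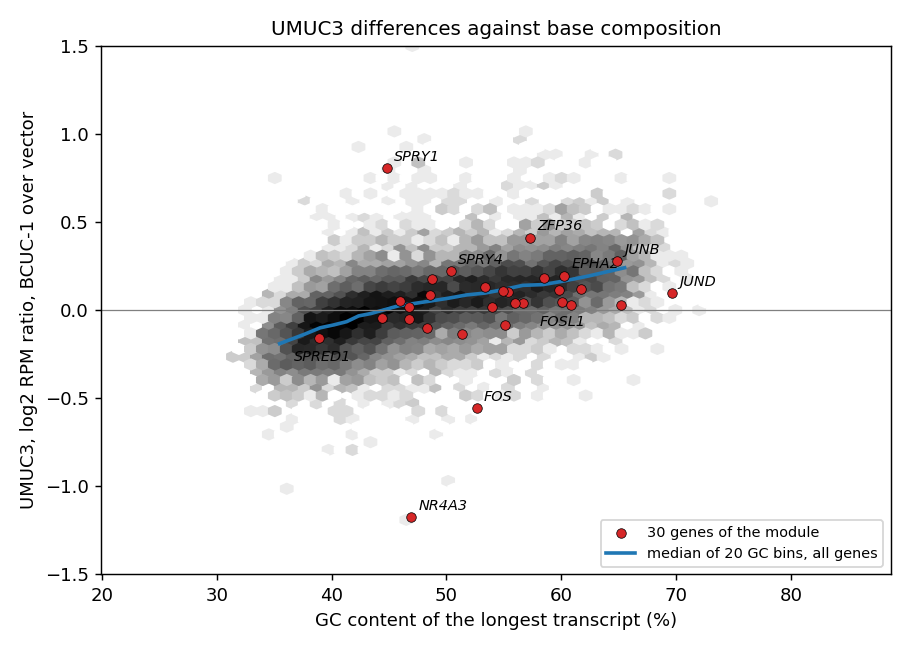
UMUC3 log2 ratio of BCUC-1 to vector in RPM against GC content in percent; grey cells are all genes above the read floor, the blue line is the median of 20 GC bins, and red points are genes of the set. The line rises with GC content, and most red points lie near it, with SPRY1 and ZFP36 above and FOS and NR4A3 below.

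Both lines together gave no call. With limma on log2(RPKM + 1) and line in the model, 0 of the 26 genes tested passed, as did 0% of all 15415 genes, and the smallest adjusted p of the set was 0.998. Before adjustment, p was under 0.05 at 0 of the 26, while 2.06% of all genes passed as higher and 2.17% as lower (4.23% in all), and limma-voom on reads called 0 of the 26 and 13 of all genes. The combined differences ran from -0.040 at SPRED1 to 0.15 at JUN (SE 0.0789), and EPHA2 had 0.13 (SE 0.0670). EPHA2 and FOSL1 were the 2 genes of 28 higher in both lines with intervals that left out 1 each time, as were 1.80% of all genes, and 0 were lower in this way (1.72%, with 3.52% of all genes in either direction). After the GC trend was removed FOSL1 had opposite signs in the lines, and EPHA2 stood at 0.096 in T24T and 0.031 in UMUC3. By sign alone 12 of the 28 were higher in both lines (24.8% of all genes), 1 was lower in both (24.1%) and 15 were split (51.2%). With the trend removed those numbers were 5 (23.9% of all genes), 5 (22.9%) and 18 (53.0%).

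Several of these genes overlap a gene on the other strand, and whether counting used strand is not stated. All 946 bases of CTC-250I14.6 lie opposite IER2 exons (30.8% of them), and it held 1220 and 1174 reads for T24T against 1490 and 1396 for UMUC3. Opposite PHLDA1, RP11-290L1.3 overlaps 553 bases and had 1211, 1348, 1308 and 1268 reads. RP11-290L1.2 overlaps another 779 bases of PHLDA1 and had 6, 3, 3 and 0 reads. XXbac-BPG252P9.10 covers 359 bases (26.5%) of IER3, another antisense gene 1875 bases (40.5%) of DUSP6 and HOOK2 259 bases (14.2%) of JUNB. RP11-1100L3.8 lies opposite 754 bases (10.3%) of NR4A1 and had 18 and 27 reads in T24T vector and BCUC-1 and 12 and 11 in UMUC3. Smaller overlaps were at EGR3 (3.4%), ETV4 (1.9%) and ETV5 (2.8%), the last with DGKG on the same strand. Reads of such partners cannot be told apart here, so levels of IER2, PHLDA1, IER3, DUSP6, JUNB and NR4A1 may hold reads of both.

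The wider pathway was read from 3 lists. Of 46 genes of the core cascade, from receptors through RAS and RAF to ERK substrates, 0 were past 1.2-fold higher (4.27% of all genes) and 3 lower (10.8%) with BCUC-1 in T24T, among them the receptor genes ERBB3 (430 against 331 reads, ratio 0.773, 0.668 to 0.894) and FGFR3 (165 against 128, 0.779, 0.613 to 0.987). In UMUC3 7 were higher (14.0% of all genes) and 3 lower (8.78%). With the GC trend removed the numbers were 2 and 0 of the 45 with a GC value, and the share of all genes is not given. RASA2, a RAS GTPase-activating protein gene, had 834 against 524 reads (0.732, 0.655 to 0.818), a log2 ratio of -0.45 that became -0.26 with the trend removed and was then inside 1.2-fold. MKNK1, an ERK-activated kinase, had 356 against 416 (1.36, 1.18 to 1.57) and kept its log2 ratio, 0.45 before and 0.44 after. CIC, the repressor of ETV4 and ETV5 that ERK signalling relieves, stood at 1.32 (1.21 to 1.45), a log2 ratio of 0.40 that became 0.16. Between the lines 22 of 43 tested were called higher in T24T (40.8% of all genes) and 8 in UMUC3 (29.6%). ERBB3 and FGFR3 reached the test's floor in T24T only and had to differ. Of the 41 that reached it in both lines, 20 and 8 were called, where 65.5% of 13049 such genes were called in either direction. The adaptor SHC1 (101 and 102 RPKM against 29.8 and 31.5, difference 1.69, limma adjusted p = 3.13e-06) and the receptor EGFR (32.7 and 31.2 against 9.76 and 10.3, 1.58, limma adjusted p = 7.04e-06) were among the T24T side.

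Of 40 other immediate early genes, 38 were above the floor in each line. In T24T 2 were past 1.2-fold higher (4.27% of all genes) and 3 lower (10.8%), and in UMUC3 2 were higher (14.0%) and 5 lower (8.78%). HBEGF, an EGF receptor ligand, had 231 and 312 reads in T24T (ratio 1.36, 1.14 to 1.61), and CYR61, a matricellular growth factor, 4390 and 5290 (1.21, 1.16 to 1.26). CSRNP1, an AXIN1-induced nuclear protein gene, had 105 and 67 (0.641, 0.464 to 0.879). In UMUC3 CTGF had 6289 and 3952 reads (0.733, 0.704 to 0.762) and KLF10, a TGF-beta-induced factor, 1355 and 898 (0.773, 0.709 to 0.841). Between the lines 14 of 37 tested were called higher in T24T (40.8% of all genes) and 15 in UMUC3 (29.6%). Of the 33 that reached the test's floor in both lines, 11 and 14 were, where 65.5% of 13049 such genes were called in either direction. CTGF (-2.79, limma adjusted p = 4.70e-06) and HBEGF (-2.34, limma adjusted p = 6.18e-06) were higher in UMUC3, both with the floor reached in each line. THBS1, a matricellular inhibitor of angiogenesis, had 30.4 and 33.8 RPKM in T24T against 0.0371 and 0.0288 in UMUC3, and reached the floor in T24T only.

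Of 36 further output and feedback genes found, 33 were above the floor in each line, with 2 past 1.2-fold higher (4.27% of all genes) and 1 lower (10.8%) in T24T and 5 higher (14.0%) and 5 lower (8.78%) in UMUC3. With the GC trend removed the UMUC3 numbers were 2 and 5, and the share of all genes is not given. The 2 higher in T24T were the phosphatase gene DUSP9, with 89 and 112 reads (ratio 1.26, 0.948 to 1.69), and PLAT, the plasminogen activator gene, with 29 and 36 (1.25, 0.743 to 2.11). PLAT had fewer than 100 reads and is named after its values were seen, and both intervals included 1. Just inside the fold stood CXCL8, an inflammatory chemokine, with 701 and 837 reads (1.199, 1.08 to 1.33). SPRED3 had 123 and 158 reads in UMUC3 (1.497, 1.18 to 1.91). EPHA1 had 376 and 454 reads in UMUC3 (1.41, 1.23 to 1.62), a log2 ratio of 0.49 that became 0.33 with the trend removed. SHOC2, a scaffold for RAF activation, had 1482 and 1011 (0.795, 0.733 to 0.862), a log2 ratio of -0.33. This became -0.19 with the trend removed and was then inside 1.2-fold. Between the lines 10 of 30 tested were called higher in T24T (40.8% of all genes) and 11 in UMUC3 (29.6%). Of the 23 that reached the test's floor in both lines, 5 and 9 were, where 65.5% of 13049 such genes were called in either direction. The cytokine LIF, which reached it in both, had 51.8 and 50.6 RPKM in T24T against 8.32 and 8.82 in UMUC3 (difference 2.45, limma adjusted p = 1.39e-06). The EGF receptor ligand AREG had 56.8 and 54.2 RPKM against 0.618 and 0.374, and the receptor EPHB2 0.361 and 0.376 against 7.48 and 8.04. Both reached the floor in 1 line only.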

How the data were processed

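RNA sequencing gave 1 library for each of the 4 groups, named by the sample titles. The authors deposited RPKM, reads per kilobase of gene length at a common library total. Multiplying it by the deposited Length (exonic bases, of unit "other" per the file headers) gave whole numbers of a single step in 100% of genes within 0.001 reads, so each read count could be recovered. The submitters' processing notes name Bowtie 0.12.2. The build, the annotation and the handling of reads with several matches are not given in sources used here. Coordinates are on GRCh38, because 96.8% of 22720 symbols shared a start or end with GENCODE 29.

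The genes and lists were chosen with earlier results of these data known. Ratios within a line are of reads scaled to equal library totals (RPM), with exact Clopper-Pearson 95% intervals and no test. Under R 4.3.3, limma 3.58.1 was fitted with its trend option to log2(RPKM + 1) for all genes that passed a floor of 1 RPKM in 2 libraries. Line and treatment were its terms, p-values were two-sided and Benjamini-Hochberg adjusted over all these genes, and 0.05 was the threshold. The fit was also run on simulated data with few changed genes, unlike these lines, so that run does not gauge the calls here. No interaction of line and treatment could be tested. Limma-voom was run on recovered reads. For GC content the longest transcript in GENCODE 29 was used (69.1% of genes, 35 of 35 of the set), and its trend was the median ratio in 20 bins.

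Genes named with values in every library were the 5 highest and 5 lowest, those past 1.2-fold in a line with 100 reads in the pair, those called at 2-fold between lines, and those with the same direction in both lines and intervals that left out 1 in each. The others are given by their values as well. Of each wider list, up to 4 genes per comparison were named from those with large differences, not in strict order of size.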

Additional observations from a re-analysis of the deposited data

Results flagged for a closer look

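For 3 genes the BCUC-1 library was lower than vector in T24T and higher in UMUC3, with counting intervals of the 2 ratios that did not overlap. They were ZFP36 (ratio 0.863, 0.711 to 1.05, in T24T and 1.33, 1.07 to 1.66, in UMUC3), SPRY4 (0.967, 0.921 to 1.02, and 1.17, 1.07 to 1.27) and IER2 (0.934, 0.871 to 1.00, and 1.09, 1.02 to 1.16). The same pattern held for 7.67% of the 14499 genes above the floor in both lines. With the GC trend removed the log2 values were -0.19 and 0.27 for ZFP36, -0.043 and 0.15 for SPRY4, and -0.058 and -0.074 for IER2, which no longer differed in sign. The difference between the lines was not tested, since an interaction leaves no residual degree of freedom.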

How the results depend on the processing

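The number of genes of the set past 1.2-fold depended on the floor and the fold. In T24T it was 3, and 0 on log2(RPKM + 1), 7 with no floor, 0 at 1.5-fold and 10 at 1.1-fold. In UMUC3 it was 5, and 1 on log2(RPKM + 1), 2 at a floor of 100 reads, 2 at 1.5-fold and 10 at 1.1-fold. At the main setting 15.1% of all genes were past 1.2-fold in T24T and 22.8% in UMUC3. Shares of all genes at the other settings are not given, so these counts show only how the set moved. Between the lines 23 genes were called by limma, from 20 at a floor of 5 RPKM to 24 with limma-voom, 16 by a 2-fold rule on reads in both pairs, and 12 with a 2-fold difference required (chosen after the data were seen). JUNB, IER2 and SPRED1 lost their call with no filter on low values (limma adjusted p of 0.101, 0.149 and 0.0725), and SPRED1 also with quantile normalization (0.0758). BCUC-1 over both lines gave 0 calls in the set under 7 other settings. Of the wider lists 27 genes were past 1.2-fold in UMUC3 and 16 with the GC trend removed (chosen after the data were seen). The share of all genes with the trend removed is not given. Among all genes the test of BCUC-1 called 60 at 5 RPKM, 13 with limma-voom and 1 with a pseudocount of 0.1, against 0. No paired analysis was possible because each group held 1 library with no replicate number, beyond the fit with line as a term, which pairs the libraries by line. Without that term the set also had 0 calls. Depth limits FOS, FOSB, ATF3, EGR2, EGR3, EPHA4 and the NR4A genes, which had at most 107 reads in a library.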
